A study of Mus musculus with 6 samples.

Results

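A set of 10 genes for the D cyclins (Ccnd1, Ccnd2, Ccnd3), the E cyclins (Ccne1, Ccne2) and CDK inhibitors of the CIP/KIP (Cdkn1a, Cdkn1b) and INK4 (Cdkn2b, Cdkn2c, Cdkn2d) families was taken by symbol from the RNA–seq table of the P3FI-90 experiment. They are 10 of the 22105 genes named in that table, and the rule itself, a list of symbols, uses no measured value, although results of these data were known when the list was made. Cdkn1c of the CIP/KIP family and Cdkn2a of the INK4 family are not in the set, so sums by family below cover only the listed members. The experiment used 4T1 cells, an established mouse mammary gland carcinoma line of epithelial type, grown in DMEM with fetal bovine serum. The control group received DMSO, the solvent, and the treated group received 10 µM P3FI-90, a small molecule that the study used to inhibit the histone H3K9 demethylase KDM3B. Both groups were collected after 24 h, with 3 libraries in each group and no genetic change is labelled in either. All 6 libraries come from this line and from 1 dose and 1 time, and the labels do not say whether the libraries of a group came from separate cultures, so p-values measure the spread between these libraries, which may be technical.

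Cyclins of the D type bind CDK4 and CDK6, and cyclins of the E type bind CDK2. The resulting kinases phosphorylate the retinoblastoma (RB) protein and its relatives, which releases E2F transcription factors and lets a cell pass from G1 into S phase. INK4 proteins bind CDK4 and CDK6 and keep D cyclins off them, whereas CIP/KIP proteins bind cyclin–CDK complexes and restrain cyclin E–CDK2 most strongly. The gene for cyclin D1 responds to mitogens and is often overexpressed in mammary carcinoma, and the gene for p21, Cdkn1a, is a classical target of p53.

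Sums over named genes lay between 31327094 and 37395732 counts per library. Each count was scaled with TMM factors to a common effective library size, which gives the normalized counts used throughout, and the low-count filter of edgeR kept 12288 genes. Of the 8 epithelial markers checked, 7 were detected and Krt5 was at 0 in every library, and the summed normalized counts of the list were 149474 to 157366 in DMSO and 62019 to 64968 in P3FI-90. Leukocyte markers summed to 368 to 434 in DMSO and 279 to 401 in P3FI-90. Fibroblast markers (3 genes) summed to 1411 to 1438 and 972 to 1065, and endothelial markers (3 genes) to 0 to 13.3 and 21.6 to 26.4. The part of these shifts in the results below was not tested.

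Most G1 cyclin and CDK inhibitor transcripts were lower after P3FI-90. Ccnd1 fell 3.39-fold and Cdkn2c, which encodes the CDK4/6 inhibitor p18, fell 2.69-fold. Cdkn1a rose 1.78-fold, and Cdkn1b did not pass the test. In the quasi-likelihood test of edgeR, with p-values adjusted by Benjamini-Hochberg over all genes tested, 9 of the 10 members entered, 1 was higher, 7 were lower and 1 was neither at an adjusted p under 0.05, and Cdkn2b had no counts. Among all 12288 genes tested, 79.3% were called, 39.9% higher and 39.4% lower, so a call in itself sets no member apart. The groups did not overlap for 8 of the 9 tested members, against 81.2% of all genes tested. The median log2 fold change of the 9 was -0.36, against 0.01 over all genes tested. With scaling by total counts 3 members were higher and 5 lower, and the median was -0.15, against 0.23 over all genes tested. An exact two-sided permutation test of 3 libraries against 3 cannot go below p = 0.1, which every tested member except Cdkn1b reached. In bulk libraries, a different share of cells in a cycle phase and a different amount of transcript per cell cannot be told apart. The study reported, from viability and colony assays, no effect of P3FI-90 on the growth of its tumor cells in culture. Cycle phase was not measured in these libraries.

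**Figure D1:**
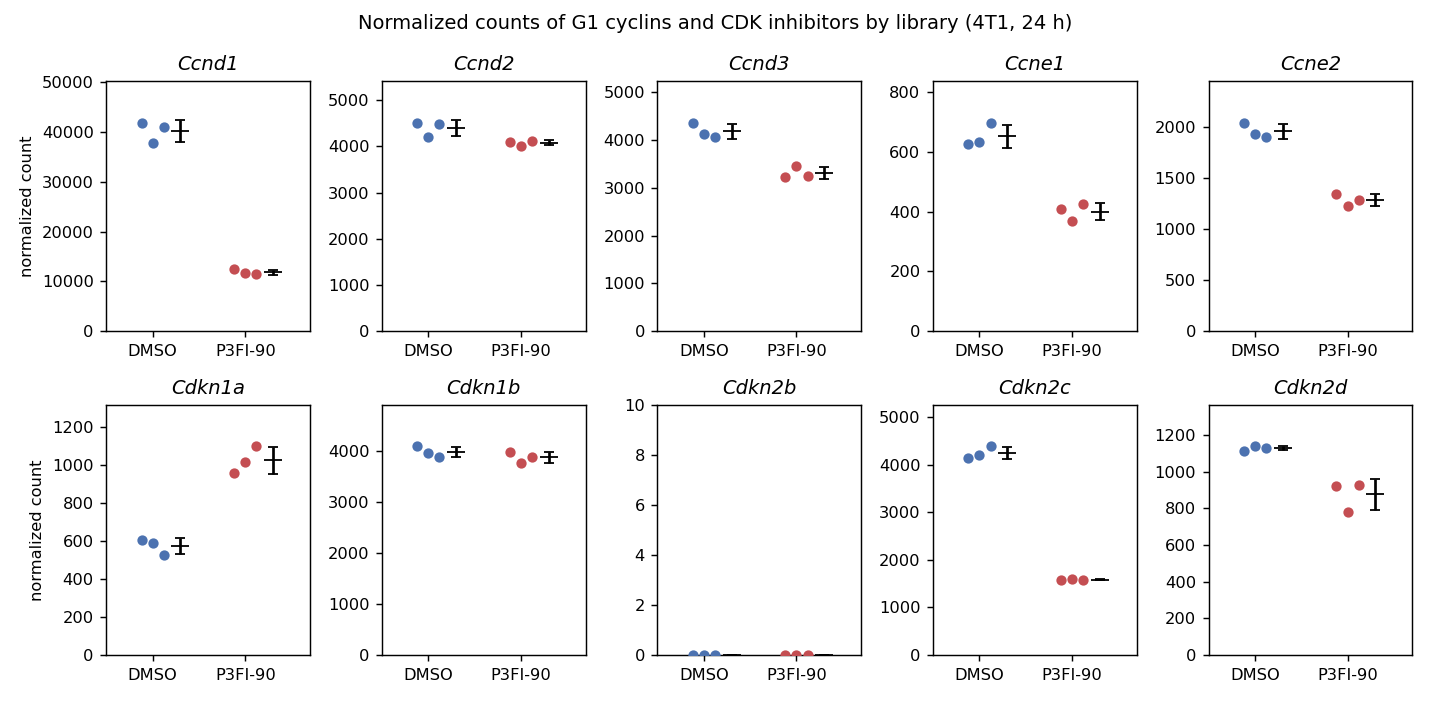
Normalized counts (linear axis from 0, scaled for each gene) of the 10 members in the 3 DMSO (blue) and 3 P3FI-90 (red) libraries, with 1 point per library and black bars for the mean and SD. The P3FI-90 points lie below the DMSO points for 7 genes (Ccnd1, Ccnd2, Ccnd3, Ccne1, Ccne2, Cdkn2c and Cdkn2d), above them for Cdkn1a, overlap them for Cdkn1b and are at 0 like them for Cdkn2b. With scaling by total counts Ccnd2 changes direction.

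Among the D cyclins, Ccnd1 (ENSMUSG00000070348) carried most of the change. Its normalized counts were 41882, 37740 and 41086 in the DMSO libraries and 12431, 11649 and 11498 in the P3FI-90 libraries. The lowest DMSO library was thus far above the highest P3FI-90 library. The log2 fold change was -1.76 (SE 0.042, 95% interval -1.85 to -1.67, adjusted p = 1.41e-13 by edgeR's quasi-likelihood test), which left 29.5% of the DMSO level, and 2.50% of all genes tested had a lower log2 fold change. In the GENCODE M21 annotation, 1100 exonic bases of Ccnd1 also lie in LTO1 on the opposite strand, and strandedness of the counting is not given in the sources used here. LTO1 itself moved the other way, from 485 ± 19.3 to 790 ± 66.6 normalized counts (SD, n = 3).

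Ccnd3 (ENSMUSG00000034165), the D cyclin best known from lymphoid cells, had normalized counts of 4356, 4120 and 4066 in DMSO and 3225, 3459 and 3242 in P3FI-90. All treated libraries were lower, and the log2 fold change was -0.34 (SE 0.044, 95% interval -0.43 to -0.24, adjusted p = 7.55e-06, edgeR). Some of its exonic bases (361) are shared with Bysl on the opposite strand, which fell by 0.54 on the log2 scale. Of the distinct 50-base stretches in the GENCODE M21 transcripts of Ccnd3, 5.39% also occur, on either strand, in transcripts of other genes, Bysl among them.

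Ccnd2 (ENSMUSG00000000184), a D cyclin known for its part in B cells and granulosa cells, changed least of the 3. Its normalized counts were 4511, 4203 and 4480 in DMSO and 4100, 4018 and 4124 in P3FI-90. The groups did not overlap, but the gap between them was narrow. The log2 fold change was -0.11 (SE 0.039, adjusted p = 0.0210, edgeR). That call was lost without DMSO library 1 (adjusted p = 0.0771), without DMSO library 3 (adjusted p = 0.0735) and without P3FI-90 library 2 (adjusted p = 0.0526), and scaling by total counts turned the log2 fold change to 0.11 (adjusted p = 0.0237). Exon overlaps of Ccnd2 with Gm43126 and 9330179D12Rik on the opposite strand come to 740 bases, and neither of these is among the named genes.

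The makeup of the D cyclins therefore shifted. On a scale of CPM (counts scaled to library size) per kilobase of exon, Ccnd1 made up 90.1%, 89.7% and 90.3% of the summed D cyclin level in DMSO and 76.7%, 75.1% and 75.1% in P3FI-90. It remained the most abundant D cyclin in every library. The summed level went from 271 ± 14.1 to 94.9 ± 2.89 (SD, n = 3), 35.1% of the DMSO level.

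Both E cyclins fell, and by similar amounts. Ccne2 (ENSMUSG00000028212) had normalized counts of 2041, 1934 and 1899 in DMSO and 1343, 1222 and 1289 in P3FI-90. Ccne1 (ENSMUSG00000002068), the E cyclin often amplified in carcinomas, had 627, 631 and 697 in DMSO and 407, 368 and 425 in P3FI-90. For neither gene did the groups overlap. The log2 fold changes were -0.61 for Ccne2 (SE 0.055, 95% interval -0.73 to -0.49, adjusted p = 1.37e-07, edgeR) and -0.71 for Ccne1 (SE 0.093, 95% interval -0.91 to -0.50, adjusted p = 7.78e-06, edgeR), and the intervals overlapped. Ccne1 made up 28.8%, 30.0% and 32.5% of the E cyclin level in DMSO and 28.5%, 28.3% and 30.2% in P3FI-90, so the groups overlapped in makeup while the summed level was 64.3% of that in DMSO. Ccne2 shares 609 exonic bases with Ints8 on the opposite strand, which fell by 0.64 on the log2 scale.

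Cdkn1a (ENSMUSG00000023067), the CIP/KIP gene that encodes p21, was the only member called higher with TMM scaling. Its normalized counts were 606, 588 and 528 in DMSO and 957, 1016 and 1096 in P3FI-90, with no overlap. The log2 fold change was 0.83 (SE 0.081, 95% interval 0.66 to 1.01, adjusted p = 2.98e-07, edgeR), and 16.8% of all genes tested had a higher log2 fold change. The rise was thus within the range of many other transcripts in these libraries. Cdkn1a shares 273 exonic bases with AC167363.2 on the opposite strand, which is not among the named genes. Of the distinct 50-base stretches in its GENCODE M21 transcripts, 8.49% also occur, on either strand, in transcripts of other genes. Whether reads from those genes were counted for Cdkn1a was not tested.

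Cdkn1b (ENSMUSG00000003031), which encodes p27, had normalized counts of 4094, 3974 and 3895 in DMSO and 3995, 3776 and 3882 in P3FI-90. The groups overlapped (exact permutation p = 0.4). The log2 fold change was -0.04 (SE 0.040, 95% interval -0.12 to 0.05, adjusted p = 0.392, edgeR), and with scaling by total counts it was 0.18 (adjusted p = 0.00103). Cdkn1a made up 15.9%, 15.9% and 14.8% of the summed CIP/KIP level in DMSO and 23.5%, 25.6% and 26.6% in P3FI-90. Cdkn1b thus held the larger share in every library, and the summed level was 110% of that in DMSO.

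Among the INK4 genes, Cdkn2c (ENSMUSG00000028551), which encodes p18, fell most. Its normalized counts were 4157, 4214 and 4391 in DMSO and 1581, 1593 and 1578 in P3FI-90. Both groups were tight and far apart. The log2 fold change was -1.42 (SE 0.045, 95% interval -1.52 to -1.33, adjusted p = 1.99e-12, edgeR), and 4.65% of all genes tested had a lower log2 fold change.

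Cdkn2d (ENSMUSG00000096472), which encodes the related inhibitor p19, fell less. Its normalized counts were 1115, 1138 and 1131 in DMSO and 921, 780 and 930 in P3FI-90, with P3FI-90 library 2 the lowest. The groups did not overlap, and the log2 fold change was -0.36 (SE 0.074, 95% interval -0.52 to -0.20, adjusted p = 4.54e-04, edgeR). With scaling by total counts it was -0.15 and no longer passed the test (adjusted p = 0.0791). Cdkn2c made up 68.6%, 68.5% and 69.5% of the summed INK4 level in DMSO and 50.2%, 54.5% and 49.9% in P3FI-90, and the summed level was 49.9% of that in DMSO.

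Cdkn2b (ENSMUSG00000073802), which encodes p15, an inhibitor known to be induced by TGF-β, had a count of 0 in all 6 libraries. A limit of 3 counts per library corresponds to 0.0553 to 0.0741 CPM per kilobase of exon, which covers counting error only. Its level and any effect of P3FI-90 on it were not detectable at this depth.

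**Figure D2:**
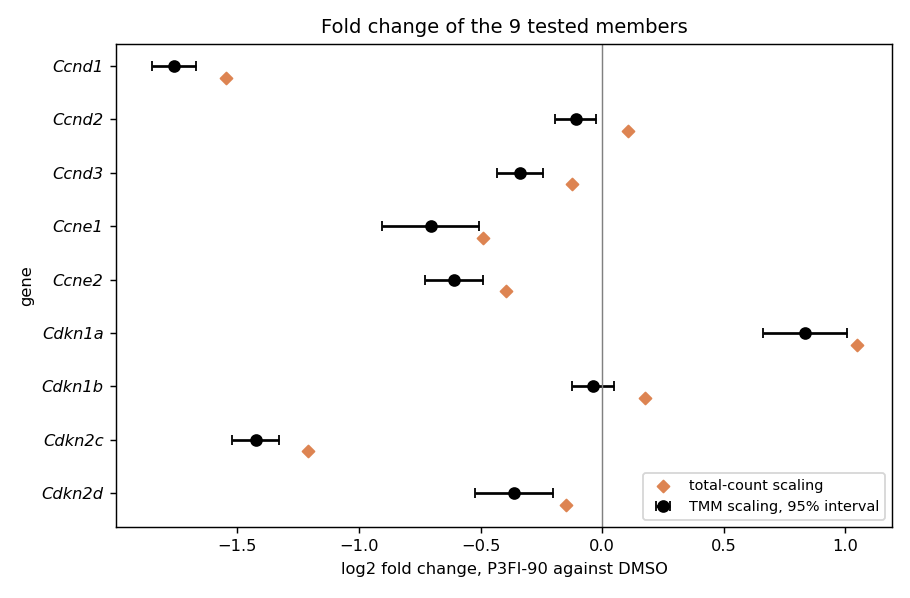
Log2 fold change of the 9 tested members, P3FI-90 against DMSO, with 95% intervals from edgeR's quasi-likelihood fit (black, 3 libraries per group) and the value with scaling by total counts (orange). The values run from -1.76 for Ccnd1 to 0.83 for Cdkn1a, and the interval of Cdkn1b includes 0. With scaling by total counts the values of Ccnd2 and Cdkn1b are above 0.

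Levels were compared between genes only per length, as CPM per kilobase of exon. In DMSO the level of Ccnd1 was 244 ± 13.3 (SD, n = 3), and 175 of the 12263 tested genes with a length had a higher level. Cdkn2c followed at 45.2 ± 1.29 and Cdkn1b at 25.0, whereas Cdkn1a was the lowest member with counts at 4.61. From highest to lowest the DMSO order was Ccnd1, Cdkn2c, Cdkn1b, Cdkn2d, Ccne2, Ccnd3, Ccnd2, Ccne1 and Cdkn1a, and of these neighbours only Ccnd3 and Ccnd2 overlapped between libraries.

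In P3FI-90 the level of Ccnd1 was 71.8 ± 3.03, and 501 genes had a higher level. Cdkn1b at 24.3 stood above Cdkn2c at 16.8 ± 0.0848, and Cdkn1a at 8.21 stood above Ccne1 at 4.29. The order was Ccnd1, Cdkn1b, Cdkn2c, Cdkn2d, Ccnd2, Ccnd3, Ccne2, Cdkn1a and Ccne1, with overlap between the neighbours Cdkn2c and Cdkn2d and between Ccnd3 and Ccne2. With the length of the longest transcript in place of all exons, the DMSO order was Ccnd1, Cdkn2c, Ccnd3, Cdkn1b, Cdkn2d, Ccnd2, Ccne2, Ccne1 and Cdkn1a. The P3FI-90 order was then Ccnd1, Ccnd3, Cdkn1b, Ccnd2, Cdkn2c, Cdkn2d, Cdkn1a, Ccne2 and Ccne1. Ccnd3 and Ccnd2 thus stood higher in both groups, and Cdkn1a stood higher in P3FI-90 only. With this length the neighbours Ccnd2 and Ccne2 overlapped in DMSO. In P3FI-90 there was overlap between Ccnd3 and Cdkn1b, between Ccnd2 and Cdkn2c and between Cdkn2c and Cdkn2d.

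**Figure D3:**
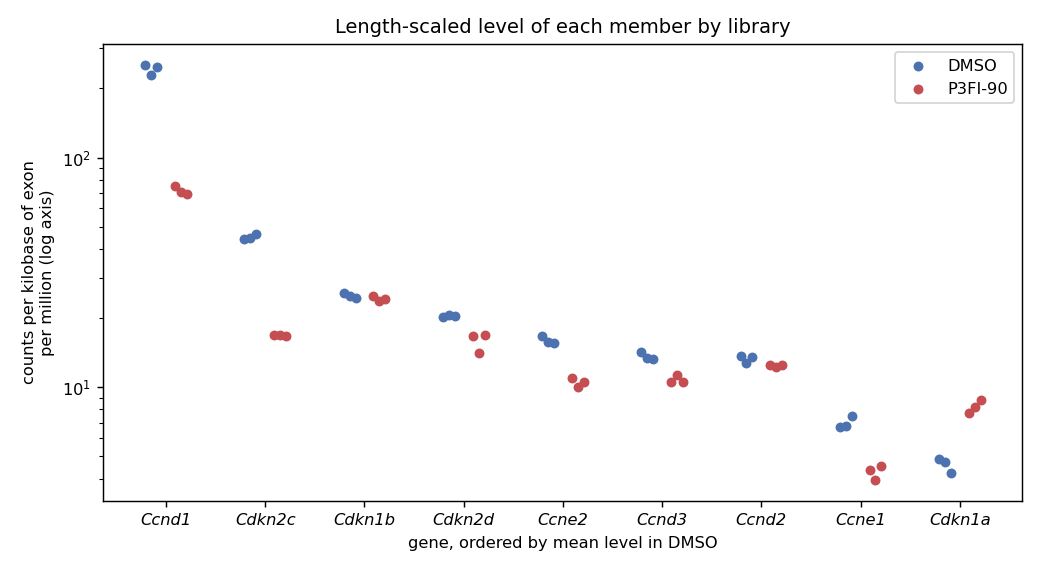
Level of the 9 members with counts, in CPM per kilobase of exon (log axis), for the 3 DMSO and 3 P3FI-90 libraries, with 1 point per library and genes ordered by mean DMSO level. Ccnd1 is the highest in both groups (244 and 71.8 on average), and Cdkn1a moves from below to above Ccne1.

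Promoter sequence in the 250 bases before the start, from RefSeq (GRCm38.p6), was matched for 7 of the 10 members, in 10 windows. No window was available for Ccnd1, Ccnd2 and Ccne2, so the matches below do not cover them. A window each of Cdkn1a, Cdkn2b and Cdkn2c is shown, for the inhibitor gene that rose, the one without counts and the one that fell most. Letters were searched on both strands, and capitals mark the GC box GGGCGG bound by Sp1 or the cyclic AMP response element TGACGTCA. The window of Cdkn1a lies at chr17:29093519-29093768 on the plus strand, that of Cdkn2b at chr4:89311033-89311282 on the minus strand and that of Cdkn2c at chr4:109666757-109667006 on the minus strand.
Cdkn1a: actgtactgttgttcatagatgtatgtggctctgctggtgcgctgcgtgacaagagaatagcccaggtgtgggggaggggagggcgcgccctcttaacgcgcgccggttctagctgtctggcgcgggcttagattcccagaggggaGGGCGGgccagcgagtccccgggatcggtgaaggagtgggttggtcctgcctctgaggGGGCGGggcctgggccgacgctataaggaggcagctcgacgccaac
Cdkn2b: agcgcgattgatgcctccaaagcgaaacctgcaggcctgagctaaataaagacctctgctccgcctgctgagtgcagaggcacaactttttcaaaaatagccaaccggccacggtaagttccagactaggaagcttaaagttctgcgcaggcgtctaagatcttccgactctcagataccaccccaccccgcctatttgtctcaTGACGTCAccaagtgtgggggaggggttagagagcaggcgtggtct
Cdkn2c: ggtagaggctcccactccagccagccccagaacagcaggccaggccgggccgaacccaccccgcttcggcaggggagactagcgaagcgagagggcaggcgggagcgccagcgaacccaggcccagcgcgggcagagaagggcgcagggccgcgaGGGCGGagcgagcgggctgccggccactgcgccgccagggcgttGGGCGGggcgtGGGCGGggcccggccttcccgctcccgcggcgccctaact
The GC box was in the window shown for Cdkn1a, which rose, and in that for Cdkn2c, which fell, as in 7 of the 10 member windows, and 32.7% of 32851 RefSeq promoter windows hold it. The window of Cdkn2b, which had no counts, holds TGACGTCA, found in 1.55% of windows. None of the 10 member windows held an E2F site as written here (TTTCCCGC, TTTCGCGC, TTTGCCGC or TTTGGCGC, in 1.86% of windows). The other letters searched were TGANTCA (AP-1, in 6.75% of windows), TGATGNAA (ATF4, 3.45%), TTTGAA (CHR, 16.0%), CACGTG (E-box, 6.02%) and TGTTTAC (FOXO, 3.17%), of which TTTGAA was found in the Cdkn2b window and TGTTTAC in a window of Ccnd3. Cdkn1a and Cdkn2c each have 1 further window, which held none of the letters searched. These matches describe letters and not sites of binding.

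The kinases that these proteins act on moved in both directions. Of 9 CDK partners and activating enzymes, 3 were higher, 4 lower and 2 neither, with a median log2 fold change of -0.03. Cdk4, a partner of the D cyclins, went from 16078 ± 288 to 11338 ± 464 normalized counts (log2 fold change -0.50, adjusted p = 9.06e-09, edgeR). Cdk6, the other D cyclin partner, went from 2479 ± 45.7 to 4051 ± 206 (log2 fold change 0.71, adjusted p = 5.15e-09, edgeR). The 2 kinases thus moved in opposite directions. Cdk2, the partner of the E cyclins, rose by 0.28 on the log2 scale, whereas Cdk7 of the CDK-activating kinase and Wee1, which phosphorylates CDKs to inhibit them, fell by 0.78 and 0.73.

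Of 13 pocket protein and E2F genes, 7 were higher, 4 lower and 2 neither (median 0.15), beside 39.9% of all genes tested higher and 39.4% lower. Rb1, which encodes RB, went from 470 ± 34.7 to 1098 ± 86.4 normalized counts (log2 fold change 1.23, adjusted p = 7.31e-09, edgeR). Its relatives moved less, Rbl1 by 0.22 and Rbl2 by -0.24 on the log2 scale. E2f1, an activating E2F, rose by 0.71, and E2f6 and E2f7, which encode repressive E2F proteins, rose by 0.49 and 0.33.

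All 14 S-phase genes known to depend on E2F were called, 7 higher and 7 lower (median -0.04), beside 79.3% of all genes tested called. The 4 with the smallest p all fell. Rrm2, a subunit of ribonucleotide reductase, fell by 1.96, the thymidine kinase gene Tk1 by 1.56, Ccna2, which encodes cyclin A2, by 1.02 and Pcna, the sliding clamp of replication, by 0.92 on the log2 scale. Among the genes that rose, Cdt1, which encodes a replication licensing factor and was named after its values were seen, rose by 0.46.

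Of 13 genes for ubiquitin ligases that act on G1 cyclins and CDK inhibitors, 3 were higher, 7 lower and 3 neither (median -0.36). Among all genes tested, 39.9% were higher and 39.4% lower, and the list was not tested for enrichment. Skp2, which targets p27, fell by 0.59, and Skp1, whose protein is the adaptor of that ligase, fell by 0.62 on the log2 scale. Ddb1, the adaptor of CUL4 ligases, fell by 0.92, from 52408 ± 607 to 27771 ± 108 normalized counts, while Dtl, whose protein directs such a ligase to p21, rose by 1.27.

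Of 21 listed p53 targets other than Cdkn1a, 18 were tested, 11 were higher, 4 lower and 3 neither (median 0.34), beside 39.9% of all genes tested higher and 39.4% lower, and the list was not tested for enrichment. Gadd45a, a DNA damage response gene, rose from 714 ± 96.4 to 3236 ± 212 normalized counts (log2 fold change 2.18, adjusted p = 1.19e-11, edgeR). Mdm2, which encodes the ligase of p53, rose by 1.45 and the kinase gene Plk2 by 0.60, whereas Phlda3, which encodes an inhibitor of AKT, fell by 1.09 on the log2 scale. Trp53 itself went from 1255 ± 125 to 3778 ± 130 normalized counts (log2 fold change 1.59, adjusted p = 3.11e-11, edgeR). Whether these cells hold functional p53 protein was not tested, so these transcripts are no measure of p53 activity.

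Trp53 was 1 of 20 listed upstream regulators of D cyclins and CDK inhibitors, of which 10 were higher, 5 lower and 5 neither (median 0.30). Among all genes tested, 39.9% were higher and 39.4% lower. Myc, which promotes G1 progression, fell by 0.45 on the log2 scale. Foxo3, which encodes a factor known to activate Cdkn1b, rose by 1.34, Zbtb17, whose protein MIZ1 activates Cdkn1a and Cdkn2b, rose by 1.32, and Kmt2a, which encodes a histone H3K4 methyltransferase, rose by 1.29. Among the 5 lower genes, Egr1 fell by 1.89 and Foxo4 by 1.55, both named after their values were seen.

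**Figure D4:**
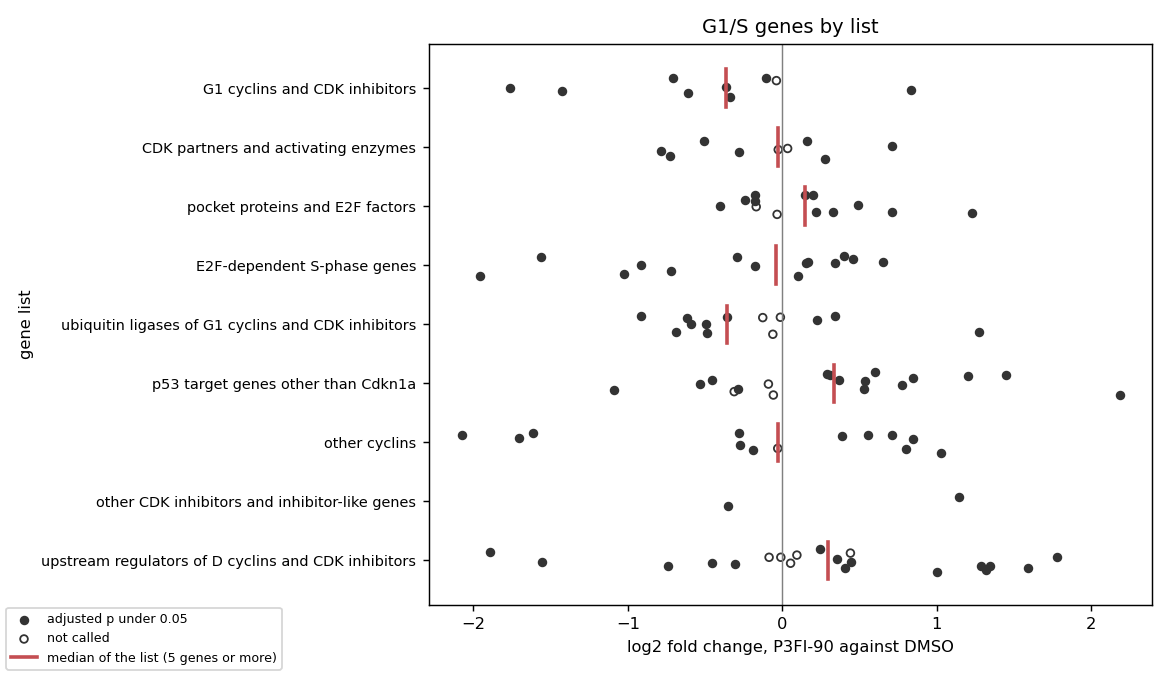
Log2 fold change (P3FI-90 against DMSO, 3 libraries each) of every tested gene in the G1 set and in 8 related gene lists, with filled points for an adjusted p under 0.05 and red bars at the median of lists of 5 or more genes. The G1 cyclins and CDK inhibitors and the ubiquitin ligases have the lowest medians (-0.36 each), and the p53 targets the highest (0.34). With scaling by total counts the medians of the CDK partners, S-phase genes and other cyclins turn positive.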

How the data were processed

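Total RNA for the 6 libraries was made into libraries with the Illumina mRNA kit and sequenced on a NovaSeq 6000. The authors deposited 1 table of whole-number read counts per gene without normalization. Their processing notes name CASAVA, HISAT2, StringTie and the build GRCm39, and the versions and the counting setting are not given in the sources used here. All libraries held more genes with 2 counts than with 1, and whether both mates were counted is not stated.

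Of 22401 rows, 285 of assembled transcripts and 11 further transcript rows at 0 were left out. The counts of the other 22105 genes (31327094 to 37395732 per library) were filtered with filterByExpr, scaled by TMM and compared with edgeR 4.0.16 in R 4.3.3 (glmQLFit and glmQLFTest, two-sided, Benjamini-Hochberg over 12288 genes, threshold 0.05). Exact permutation tests used scipy 1.17.1. Exon lengths came from GENCODE M21, an older build than that of the counts, and promoters came from RefSeq GRCm38.p6. The only coordinates given are those of promoter windows, which are on GRCm38.p6 and not on the build of the counts. Lists have counts and medians and no set test.

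The members and lists were chosen with earlier results of these data known. Named were all 10 members, Cdk2, Cdk4, Cdk6, Rb1, Rbl1, Rbl2, E2f1, Skp2, Trp53, Mdm2 and Myc, and the 4 genes with the smallest p of each list. Genes that share exons with a member or neighbour Cdkn2b, and genes stated to be so, lie outside that rule. Values of some listed genes are not reported here.

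Alternatives were DESeq2 size factors, total counts, upper quartiles, no filter, a minimum of 10 counts per library, the tests of DESeq2 1.42.0, limma-voom and limma 3.58.1 on log2(CPM + 1), a block for the replicate number, each library left out, and for shares no length scaling. The longest transcript as length was added after seeing the data. Deviations of libraries with the same number correlated at -0.021, 0.015 and 0.0049, so no shared deviation was seen. The labels do not say whether the numbers pair the samples, and these correlations cannot decide it.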

Additional observations from a re-analysis of the deposited data

How the results depend on the processing

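Over 15 alternatives Ccnd1, Ccnd3, Ccne1, Ccne2, Cdkn1a and Cdkn2c kept their direction and their call, with log2 fold changes of -1.81 to -1.55 for Ccnd1, -0.38 to -0.12 for Ccnd3, -0.76 to -0.49 for Ccne1, -0.65 to -0.39 for Ccne2, 0.77 to 1.05 for Cdkn1a and -1.46 to -1.21 for Cdkn2c. Total counts in place of TMM raised the median of all genes by 0.21, called 6179 genes higher and 3641 lower against 4908 and 4841, and called 3 members higher and 5 lower. It turned Ccnd2 to 0.11 and Cdkn1b to 0.18 and left Cdkn2d at -0.15 without a call. Under total counts 5 CDK partners were higher (median 0.19), 1 pocket protein or E2F gene was lower (median 0.36), 5 ubiquitin ligase genes were higher (median -0.14), 3 other cyclins (median 0.18) and 0 other CDK inhibitors were lower, and the medians were 0.18 for S-phase genes, 0.55 for p53 targets and 0.51 for upstream regulators. With upper quartiles the medians were -0.078 for S-phase genes, -0.068 for other cyclins and 0.26 for upstream regulators. The median of other cyclins was 0.17 with no filter and -0.011 with at least 10 counts.

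Without length scaling the shares in DMSO and P3FI-90 were 82.4% and 61.6% for Ccnd1, 25.0% and 23.7% for Ccne1, 12.6% and 20.9% for Cdkn1a and 79.0% and 64.4% for Cdkn2c. With the longest transcript, chosen after seeing the data, they were 85.8% and 67.8% for Ccnd1, 33.4% and 31.9% for Ccne1 and 23.9% and 36.6% for Cdkn1a. The summed CIP/KIP level in P3FI-90 was 108% of that in DMSO without length scaling and 117% with the longest transcript.

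With each library left out in turn, 6 to 7 members were lower and 1 higher, Ccnd2 ranged from -0.14 to -0.093, and the medians ranged from -0.083 to 0.039 for CDK partners, 0.33 to 0.39 for p53 targets, -0.10 to 0.025 for other cyclins and 0.23 to 0.31 for upstream regulators. With the replicate number as a block, 1 member was higher and 7 lower, Ccnd1 was at -1.76, and 4802 genes were higher and 4722 lower. The labels give these samples a shared number and state no pairing.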

Other observations

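Of 16 other cyclins, 13 were tested, 6 were higher, 6 lower and 1 neither, beside 39.9% of all genes tested higher and 39.4% lower. The mitotic cyclin genes Ccnb1 and Ccnb2 fell by 1.71 and 1.62 on the log2 scale, and Ccnf, whose protein is the F-box subunit cyclin F, fell by 2.08. Ccni rose by 0.85. Chosen after their values were seen, Ccnt1 (1.03), Ccnt2 (0.55), Ccnk (0.39), Ccnl1 (0.80) and Ccnl2 (0.71) made up the other 5 genes called higher, and Ccnc, Ccng2 and Ccny the other 3 called lower (-0.27, -0.28 and -0.19). Of 4 other CDK inhibitor and inhibitor-like genes 2 were tested, and Cdkn2aip rose by 1.15 while Cdkn3 fell by 0.35.

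Cdkn2b was not the only gene without counts at its place on chromosome 4. Of all 22105 named genes, 6452 had a count of 0 in every library, and why the genes here had none was not tested. In RefSeq gene order, Cdkn2a, next to it, also had a count of 0 in all 6 libraries, and Dmrta1 on the other side had 2 counts in 1 library. Zfp352, the next gene, had 0 to 3 counts, and Elavl2, Izumo3 and Tusc1 had 0. On the side of Cdkn2a, Ifne, which lies beyond Mtap, had 3 counts in 1 library and 0 in the others. Mtap, 2 genes from Cdkn2b, which encodes an enzyme of methionine salvage, had 30453, 25743 and 30591 counts in DMSO and 8313, 8592 and 7868 in P3FI-90. Caap1, 6 genes away on the other side, had 520 to 916 counts.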
